A study of Drosophila melanogaster with 4 samples.

Results

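Among 17023 genes counted in Drosophila melanogaster ovaries, 25 form the group described here. Each was far more abundant in bam RNAi ovaries than in the libraries labelled Nipped-A RNAi. They were selected on the measured values themselves. Each had at least 5 CPM (the count divided by the total of its library, times 1e6) in both bam RNAi libraries, and its lower bam RNAi value was at least 6 times its higher value in the Nipped-A-labelled libraries. Of 7499 genes at 5 CPM or more in both bam RNAi libraries, 42 met both conditions. The 17 dropped by symbol were actins (Act87E, Act88F), storage and fat body proteins (Lsp1alpha, Lsp1gamma, Fbp1, Fbp2), odorant-binding proteins (Obp99b, Obp99c), immune peptides (BomS6, BomT2, DptA, AttC), cuticle proteins (Cpr49Ae, Cpr78Ca), the metal transporter Zip89B, the hemocyte gene NimC2 and the ribosomal protein gene RpS19b. Since all 4 libraries entered the choice, the differences of the 25 genes between groups are a description and carry no test.

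Both groups were whole ovaries dissected 2 to 3 days after eclosion, with 2 libraries each of poly(A) RNA. The first genotype was UAS-Dcr2;nosGAL4>bam RNAi. The second was UAS-Dcr2;nosGAL4>Nipped_A RNAi. Every fly thus carried nosGAL4, a driver active in germ cells and not in the somatic cells of the ovary, and UAS-Dcr2, which strengthens RNA interference. No untreated ovaries were analysed here, so a value is high or low relative to the other knockdown. The labels do not tell whether the libraries of a group came from separate flies, and p-values given below for other genes measure the spread between these samples, which may be technical.

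The Bam protein moves germline stem cell daughters out of the stem cell state, and ovaries that lack it in the germline fill with undifferentiated germ cells. Nipped-A is a large scaffold protein of histone acetyltransferase complexes. A dissected ovary also holds follicle cells, escort cells, a muscle sheath, tracheal branches and attached blood cells, and may carry fat body. In RNA from whole ovaries, fewer cells of a type and less RNA per cell cannot be told apart.

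The libraries held 21193517 to 47825006 counts. The bam transcript had 4.61 and 6.41 CPM in the bam RNAi libraries and 29.8 and 16.99 CPM in the others, a log2 fold change of 2.03 ± 0.38 (± SE; edgeR's quasi-likelihood test with Benjamini-Hochberg adjustment, adjusted p = 0.0254). Nipped-A had 282 and 243 CPM in the bam RNAi libraries and 442 in each Nipped-A-labelled library, a log2 fold change of 0.70 ± 0.14 (edgeR adjusted p = 0.0287; 0.0524 with upper-quartile scaling). The targeted transcript was therefore higher, not lower, in the group that carries its name, and every direction below rests on the labels. Log2 fold changes are given with the bam RNAi libraries as the denominator and with standard errors from edgeR.

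Together the 25 genes made up 1083 and 1203 CPM in the bam RNAi libraries, against 107.1 and 129.8 CPM in the Nipped-A-labelled libraries. Their lower bam RNAi value ran from 5.58 CPM (CG13082) to 465 CPM (CG13067), with a median of 15.6 CPM, and their higher value in the other group had a median of 1.51 CPM. Most were low in abundance: 16 reached 10 CPM in both bam RNAi libraries, 5 reached 50 CPM and 2 reached 100 CPM. For the 7499 genes at 5 CPM or more in both bam RNAi libraries, the median lower value was 48.7 CPM. The ratio of the lower bam RNAi value to the higher Nipped-A RNAi value had a median of 8.20 and reached 40.6 for CG31683. It was at least 10 in 9 genes and at least 20 in 5 genes (CG5402, NANS, CG34215, SPH93 and CG31683).

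**Figure D1:**
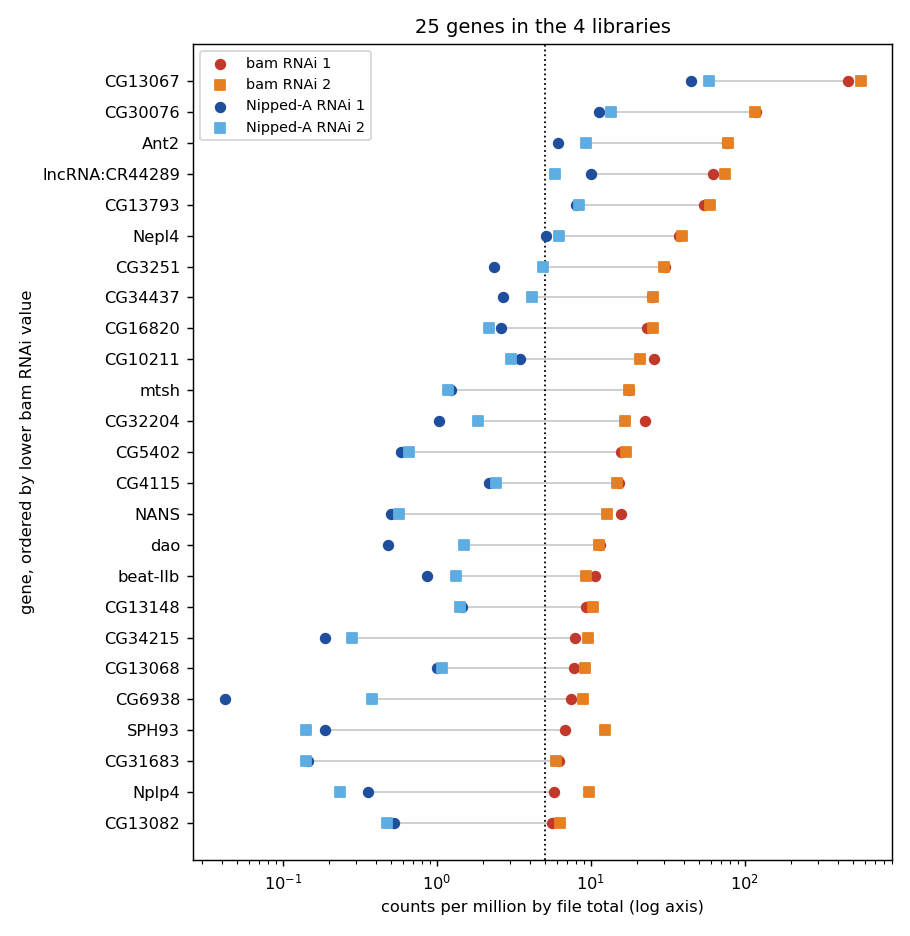
CPM (log axis) of each of the 25 genes in each of the 4 libraries, 1 point per library, ordered by the lower bam RNAi value, with the dotted line at the 5 CPM minimum. CG13067 lies at 465 and 564 CPM in bam RNAi and at 44.7 and 58.8 CPM in the Nipped-A-labelled libraries, and the gaps between groups follow from how the genes were chosen.

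All 25 genes passed the filter on low counts, and edgeR called 25 of 25 lower in the Nipped-A-labelled libraries, where 8.31% of the 10245 genes tested were called lower and 11.3% higher. In all 25 both bam RNAi values lay above both values of the other group, as in 32.9% of the genes tested. Both counts follow from the choice of the genes, and nothing is read from them. The log2 fold changes ran from -5.84 (SPH93) to -2.77 (CG4115), with a median of -3.37, while the median of all genes tested was 0.00. Over all genes edgeR called 851 lower and 1153 higher; with upper-quartile scaling, which moved the median of all genes to -0.21, these became 1556 and 853. Without bam RNAi library 1 or 2 edgeR called 0 genes (2373 and 1837 at an unadjusted p below 0.05), so every call given here needs both bam RNAi libraries.

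The bam RNAi libraries gave similar values for the genes, with library 2 at 0.742 to 1.80 times library 1. None of the 25 differed more than 2-fold between the bam RNAi libraries, as was so for all but 0.133% of the 7499 genes at 5 CPM or more. Between the Nipped-A-labelled libraries, 3 of 25 differed more than 2-fold (CG3251, dao and CG6938), and 4.07% of 7496 genes did so. CG6938 rested on 2 and 8 counts in that group, the fewest of the 25 in a single library.

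Ordered by what their products do, the genes with a known role fall into mitochondrial proteins, a transporter and metabolic or redox enzymes, peptidases and peptidase homologs, and proteins of the nervous system. Ant2 encodes an adenine nucleotide translocase, the inner membrane carrier that exchanges ADP for ATP between mitochondria and cytosol. It had 76.3 and 77.7 CPM in the bam RNAi libraries and 6.15 and 9.30 CPM in the Nipped-A-labelled libraries, a log2 fold change of -3.37 ± 0.28. Its bam RNAi values were close, while Nipped-A-labelled library 2 was at 1.51 times library 1. The groups lay 8.20-fold apart at their nearest.

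The neighbouring gene sesB encodes the major adenine nucleotide translocase of the fly, and it had 3361 and 3391 CPM in bam RNAi. In the other group sesB had 2030 and 2109 CPM and fell, with a log2 fold change of -0.76 ± 0.12 (edgeR, Benjamini-Hochberg adjusted p = 0.0197). Per kilobase of exon, the mean bam RNAi level was 53.6 CPM for Ant2 and 1683 CPM for sesB. The genes lie on the same strand of chromosome X (dm6; Ant2 at 10778954 to 10786907) and share 102 exonic bases, or 7.10% of Ant2. How reads in shared bases and reads that map to both copies were counted is not given in the sources used here, so the Ant2 counts are uncertain.

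The second gene of mitochondria, mtsh (mitoshell), is known from the testis, where it is needed for the mitochondrial reshaping of spermatids. It had 17.6 CPM in each bam RNAi library against 1.23 and 1.18 CPM, a log2 fold change of -3.91 ± 0.32. mtsh shares 123 exonic bases, or 4.87%, with CG7806 on the opposite strand. CG7806 moved the other way, from 71.5 and 60.7 CPM to 119 and 125 CPM (log2 fold change 0.83 ± 0.15, edgeR adjusted p = 0.0250).

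Other genes known from the testis varied. Of 14 testis genes found by symbol, comr and Prosalpha3T had no counts in any library. The late spermatid genes dj and Mst87F stayed below 0.5 CPM in all 4. Of the 8 tested, aly, a meiotic arrest gene, fell from 8.72 and 5.61 CPM to 1.59 and 2.12 CPM (log2 fold change -2.003 ± 0.47, edgeR adjusted p = 0.0404). twe, the meiotic Cdc25 phosphatase also used in the female germline, rose from 29.1 and 29.4 CPM to 119 and 73.5 CPM (1.66 ± 0.26, edgeR adjusted p = 0.0182). The other six were not called.

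CG13793 belongs to the sodium-dependent neurotransmitter transporter family (SLC6). It had 54.4 and 59.5 CPM in the bam RNAi libraries and 7.97 and 8.30 CPM in the other group, a log2 fold change of -2.86 ± 0.20. It sits on chromosome 2L (dm6, 7716974 to 7719487) inside a cluster of relatives, with CG33296 328 bases away on one side and CG13794 359 bases away on the other. Its relatives had their own values. Of the 5, 4 could be tested and edgeR called 0, also 0 at an unadjusted p below 0.05, and DESeq2 called 0. The most abundant relative, CG13796, had 15.9 and 19.1 CPM in bam RNAi and 12.3 and 14.6 CPM in the Nipped-A-labelled libraries.

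NANS encodes the fly sialic acid synthase, which makes N-acetylneuraminic acid 9-phosphate. It had 15.7 and 12.7 CPM in bam RNAi against 0.502 and 0.566 CPM, a log2 fold change of -4.79 ± 0.40. Its 24 and 12 counts in the Nipped-A-labelled libraries set the precision. The pooled ratio of the groups was 27.8, with a 95% exact interval of 19.9 to 40.0. This interval and those given below cover counting error only. They take no account of the choice of the genes on these same counts.

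Later enzymes of the same pathway, Csas and SiaT, were barely detected. Csas, which activates sialic acid, had 0.295 and 1.01 CPM in bam RNAi and 0.0209 and 0.613 CPM in the other group and was not called (edgeR adjusted p = 0.610). SiaT, the only sialyltransferase of the fly, had 0 counts in all 4 libraries. Among 6 tested genes of sialic acid and glycan synthesis, only NANS was called lower, and that call follows from how it was chosen. In the same list sff, a neuronal kinase that regulates glycosylation, rose from 0.680 and 2.14 CPM to 10.2 and 13.3 CPM (3.02 ± 0.64, edgeR adjusted p = 0.0331). NANS shares 83 exonic bases, or 6.95%, with CG5641 on the opposite strand, which had 46.8 to 73.4 CPM in the 4 libraries.

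CG10211 is a haem peroxidase, listed by RefSeq under the synonym DBLOX. It had 25.6 and 20.9 CPM in bam RNAi and 3.47 and 3.02 CPM in the other group, a log2 fold change of -2.89 ± 0.28. Other haem peroxidases went both ways. Pxn (peroxidasin), which cross-links basement membrane collagen, fell from 2503 and 2288 CPM to 1383 and 1302 CPM (-0.89 ± 0.13, edgeR adjusted p = 0.0167). Pxt, a peroxidase needed for follicle maturation, rose from 162 and 139 CPM to 739 and 373 CPM (1.83 ± 0.33, edgeR adjusted p = 0.0240). Irc and Pxd were not called.

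Nepl4 belongs to the neprilysin-like family of M13 metallopeptidases, membrane or secreted enzymes whose active members cut small peptides. It had 37.5 and 39.3 CPM in the bam RNAi libraries and 5.14 and 6.23 CPM in the Nipped-A-labelled ones, a log2 fold change of -2.81 ± 0.23. Its ratio of 6.02 lay just above the factor of 6 that chose the genes.

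Of the 25 other neprilysin and neprilysin-like genes, 22 were tested, 4 fell and 0 rose (edgeR; 5 had an unadjusted p below 0.05 in either direction, and DESeq2 called 4). Their median log2 fold change was -0.70, against 0.00 for all genes tested. Nepl19 fell most in CPM, from 40.4 and 43.0 to 5.35 and 8.78 (-2.62 ± 0.31, edgeR adjusted p = 0.0132). Nep7 fell from 4.23 and 4.40 to 0.565 and 0.425 CPM (-3.15 ± 0.53, edgeR adjusted p = 0.0214). Nep4 (-2.50 ± 0.61, edgeR adjusted p = 0.0456) and Nepl21 (-0.80 ± 0.16, edgeR adjusted p = 0.0304) were the other calls, and that of Nep4 was lost without either Nipped-A-labelled library (adjusted p = 0.0729 and 0.0966). Nepl16, which like Nepl19 was close to Nepl4 in bam RNAi CPM, had 38.3 and 43.3 against 28.6 and 40.9 CPM and was not called.

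**Figure D2:**
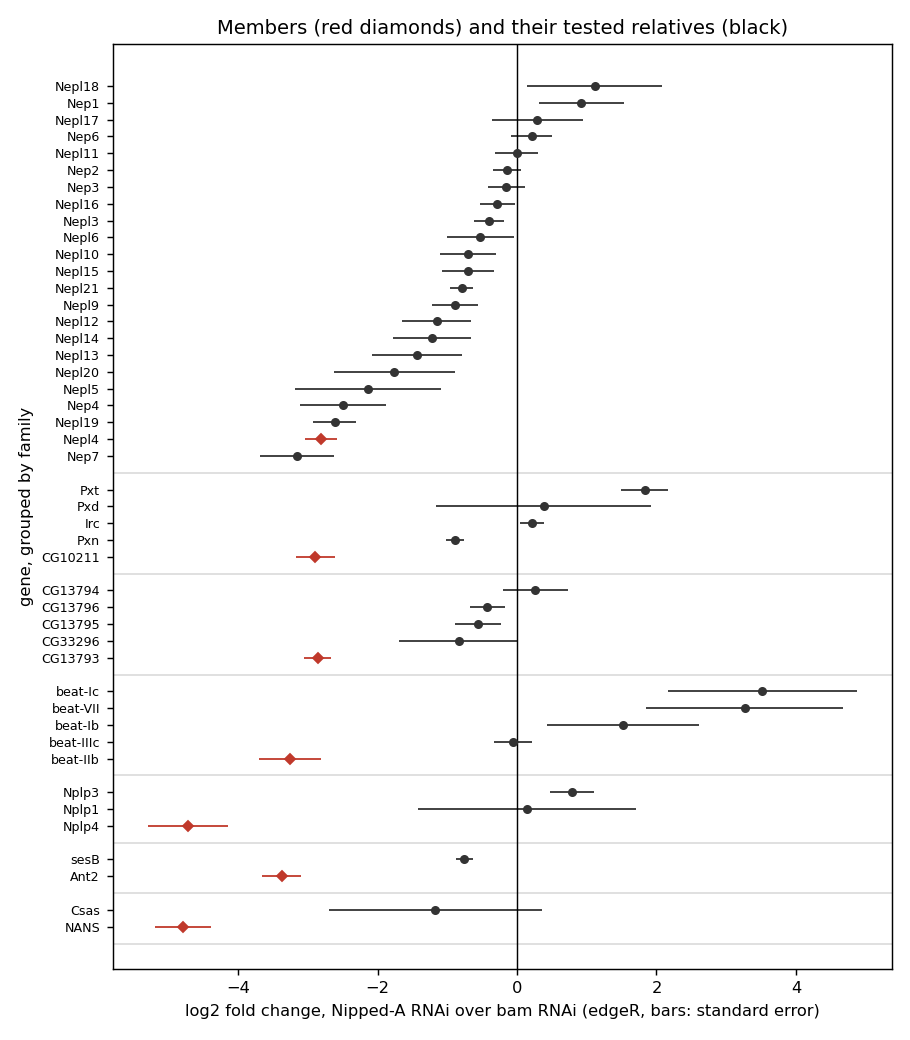
Log2 fold change (Nipped-A-labelled libraries over bam RNAi, bars are standard errors) of each of the genes with tested relatives (red diamonds) and of those relatives (black), grouped by family. Nepl4 lies at -2.81 with Nepl19, Nep7 and Nep4 near it, among neprilysin relatives that reach 1.11 and have a median of -0.70. The relatives of CG13793 lie between -0.83 and 0.26, and sesB lies at -0.76 beside Ant2 at -3.37.

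Serine protease homologs keep the fold of a serine protease but lack a residue needed for cleavage. CG34437, named SPH201 among its RefSeq synonyms, had 24.996 and 25.3 CPM in bam RNAi and 2.68 and 4.15 CPM in the other group, a log2 fold change of -2.94 ± 0.33. SPH93 was much lower in abundance, with 6.83 and 12.3 CPM against 0.188 and 0.142 CPM (9 and 3 counts). Its log2 fold change of -5.84 ± 0.59 was the largest of the 25, and its pooled ratio of 52.3 had a 95% exact counting interval of 29.7 to 102.

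SPH93 was also in a list of 18 melanisation and clotting genes, which act in the hemolymph and at wounds. The 13 found by symbol were all tested, and 7 fell while 1 rose, with a median log2 fold change of -1.23. SPH93 is among the 7, and its fall follows from how it was chosen. Of all genes tested 8.31% were called lower and 11.3% higher. Spn27A, a serpin that restrains melanisation, fell from 305 and 311 CPM to 81.4 and 65.0 CPM (-2.13 ± 0.16, edgeR adjusted p = 0.00925). The clotting protein gene fon fell from 69.4 and 68.9 CPM to 13.8 and 11.9 CPM (-2.47 ± 0.19, edgeR adjusted p = 0.00925). PPO2, the prophenoloxidase of crystal cells, fell from 144 and 147 CPM to 54.4 and 73.8 CPM (-1.23 ± 0.19, edgeR adjusted p = 0.0185).

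The remaining falls were Tig (-1.49 ± 0.26, edgeR adjusted p = 0.0229), Spn77Ba (-0.91 ± 0.22, adjusted p = 0.0438) and Spn28Dc (-0.88 ± 0.22, adjusted p = 0.0453). The call of Spn28Dc ended with RLE scaling (adjusted p = 0.0505) and with no filter on low counts (0.0515). ple, the tyrosine hydroxylase that supplies melanin and dopamine, rose from 0.473 and 1.51 CPM to 59.6 and 70.1 CPM (6.02 ± 0.58, edgeR adjusted p = 0.00996).

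A pair of genes have relatives known from neurons. beat-IIb belongs to the beaten path family of immunoglobulin proteins, whose founding member guides motor axons. It had 10.7 and 9.34 CPM in bam RNAi and 0.857 and 1.32 CPM in the Nipped-A-labelled libraries, a log2 fold change of -3.26 ± 0.44. Of 13 other beat genes 4 were tested, and edgeR called 0 (1 at an unadjusted p below 0.05; DESeq2 called 0). beat-IIIc, the most abundant of the family, had 145 and 97.2 CPM against 98.5 and 143 CPM, and those groups overlap.

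Nplp4 encodes a precursor of 64 residues from which a neuropeptide-like peptide is cut. It had 5.79 and 9.72 CPM in bam RNAi against 0.355 and 0.236 CPM (17 and 5 counts), a log2 fold change of -4.71 ± 0.57. Its relatives Nplp1 and Nplp3 were not called by edgeR (0 of 2, also 0 at an unadjusted p below 0.05; DESeq2 called 1), and Nplp3 had 27.2 and 32.5 CPM against 38.9 and 67.5 CPM. General neuronal markers were low: brp stayed at or below 2.83 CPM and nSyb at or below 4.62 CPM in every library, while elav had 34.7 to 54.1 CPM. Of 7 tested neuronal markers edgeR called 0 (0 at an unadjusted p below 0.05, and DESeq2 called 0). Summed levels of the list were 57.5 to 68.3 CPM in bam RNAi and 51.9 to 87.7 CPM in the other group. These values leave out VGlut, a gene meant for the list whose symbol was spelled differently there. VGlut had 4.58 and 4.82 CPM in bam RNAi against 0.146 and 0.0944 CPM, a log2 fold change of -5.24 ± 0.61.

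The one noncoding gene, lncRNA:CR44289, is a single exon of 2073 bases on chromosome 3R (dm6, 27535831 to 27537903). It had 61.6 and 73.8 CPM in bam RNAi and 9.95 and 5.804 CPM in the Nipped-A-labelled libraries, a log2 fold change of -3.15 ± 0.32. CG5402, with 15.6 and 16.9 CPM against 0.585 and 0.661 CPM, lies 32.9 kb away on the same strand with 2 genes between. Gr98b, a gustatory receptor gene beyond the noncoding gene, fell from 3.90 and 2.77 CPM to 0.0836 and 0 CPM (log2 fold change -5.95 ± 1.04, edgeR adjusted p = 0.0223).

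A symbol of CG and digits was carried by 16 of the 25 genes (64.0%), CG13793, CG10211 and CG34437 among them. The drop by symbol raised that share, which was 16 of 42 (38.1%) before it, against 30.7% of the genes at 5 CPM or more in both bam RNAi libraries. CG13067, the most abundant of all, encodes 79 residues and had 465 and 564 CPM in bam RNAi against 44.7 and 58.8 CPM. Per kilobase of exon its bam RNAi mean was 912 CPM, while the median of the 25 was 14.7 CPM and CG6938, the lowest, had 1.93 CPM. The genes were thus not high as a group on this scale, since the median of all genes at 5 CPM or more in both bam RNAi libraries was 21.1 CPM per kilobase.

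CG13067 has a partner 1370 bases away on the same strand of chromosome 3L. This gene, CG13068, encodes 109 residues and had 7.80 and 9.09 CPM in bam RNAi against 1.00 and 1.09 CPM. On the far side of CG13068, CG4950 fell from 217.6 and 243 CPM to 40.3 and 72.9 CPM (log2 fold change -2.08 ± 0.31, edgeR adjusted p = 0.0173). CG34248, which lies between CG13067 and CG13068, and CG13066 and CG13065 on the other side stayed below 0.5 CPM in all libraries. Genes high in bam RNAi and genes barely detected thus lay side by side.

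CG30076 was the second most abundant, with 119 and 117 CPM in bam RNAi and 11.3 and 13.4 CPM in the other group (log2 fold change -3.30 ± 0.19). It lies within ttv on the opposite strand (chromosome 2R, dm6, 14544150 to 14546372) and shares no exonic base with it, and ttv, a heparan sulfate polymerase gene, was not called (0.24 ± 0.15, edgeR adjusted p = 0.301). CG3251 had 30.2 and 29.9 CPM in bam RNAi against 2.36 and 4.91 CPM. CG16820 had 23.0 and 25.1 CPM against 2.61 and 2.17 CPM.

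CG32204 had 22.4 and 16.6 CPM in bam RNAi and 1.02 and 1.84 CPM in the Nipped-A-labelled libraries. CG4115 had 15.3 and 14.8 CPM against 2.17 and 2.41 CPM. dao had 11.5 and 11.3 CPM against 0.481 and 1.51 CPM. The lower group of dao was uneven, with library 2 at 3.14 times library 1. CG13148 had 9.25 and 10.3 CPM against 1.46 and 1.42 CPM.

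The genes with the widest gaps were among the least abundant. CG34215 had 7.89 and 9.55 CPM in bam RNAi against 0.188 and 0.283 CPM (9 and 6 counts), and its pooled ratio of 39.5 had a 95% exact counting interval of 23.7 to 71.1. CG31683 had 6.20 and 5.95 CPM against 0.146 and 0.142 CPM (7 and 3 counts), with an interval of 22.6 to 88.6. CG6938 had 7.48 and 8.88 CPM against 0.0418 and 0.377 CPM, with an interval of 30.0 to 117. For these genes the size of the gap is known within a few-fold at best. Counting error is only part of its error, and the choice of the genes on these same counts favours high ratios. CG13082 had 5.58 and 6.33 CPM against 0.523 and 0.472 CPM.

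**Figure D3:**
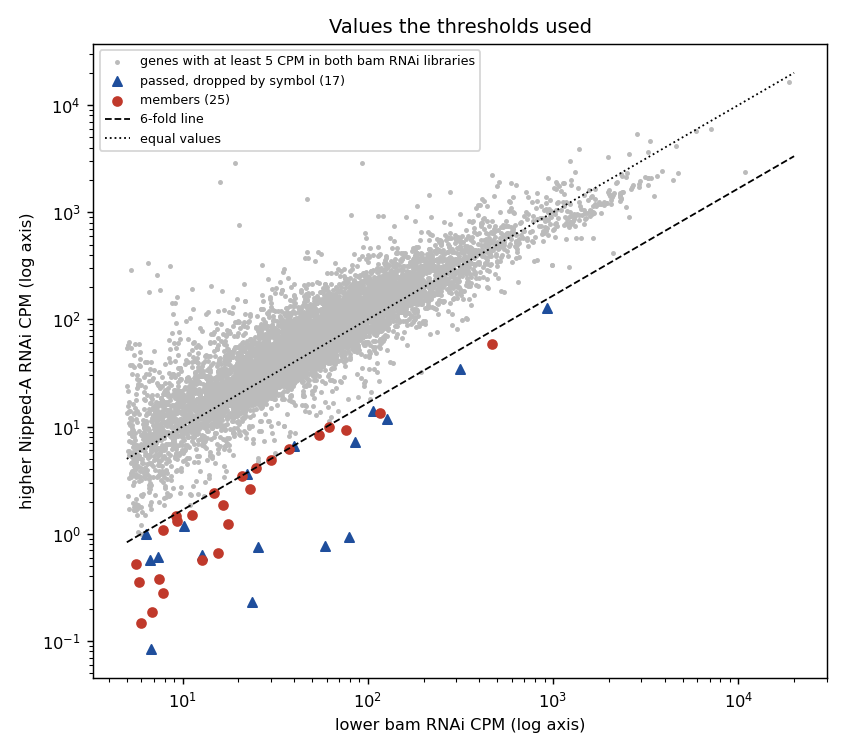
Lower bam RNAi CPM (log axis) against higher CPM in the Nipped-A-labelled libraries (log axis), the values that chose the genes, with the 25 genes, the 17 dropped by symbol and the other genes marked. CG10211, CG34437 and Nepl4 lie just inside the factor of 6, and Jhbp7, at 5.9988, lies just outside it.

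The boundaries of the group were close to other genes. Just inside the factor of 6 were CG10211 (6.01), CG34437 (6.02) and Nepl4 (6.02), and just outside were Jhbp7 (5.9988), Fam92 (5.99) and gNacalpha (5.96). Just inside the minimum of 5 CPM were CG13082 (5.58 CPM), Nplp4 (5.79 CPM) and CG31683 (5.95 CPM). Outside it, with a ratio above 6, were the vesicular glutamate transporter gene VGlut (4.58 CPM), CG14566 (4.43 CPM) and Nep7 (4.23 CPM). With the groups exchanged, the same thresholds were met by 167 genes before any was dropped by symbol.

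Position, length and protein size were not used in the choice. On chromosome arm 2L lay 11 of the 25 genes (44.0%), against 18.1% of the 7322 genes with a known position at 5 CPM or more in both bam RNAi libraries. Chromosome X held 1 gene, Ant2 (4.0%, against 17.4%). Before genes were dropped by symbol, 2L held 13 of 42 (31.0%) and X 2 of 42 (4.76%), so the share on 2L rests in part on which symbols were dropped. These shares are descriptions without a test.

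The genes were somewhat short, with a median of 1672 exonic bases (444 to 5187) against 2216 for the same reference. All genes called lower in the Nipped-A-labelled libraries had a median of 1520 bases, and those called higher 3363. Of 24 proteins 4 had at most 110 residues (16.7%, against 3.01%, and 17.1% before the drop by symbol). These were CG13067, CG13068, CG34215 and Nplp4. In 10 of 24 coding genes the longest coding transcript had 1 or 2 exons (41.7%, against 24.9%, and 56.1% before the drop by symbol).

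Genes beside the 25 were mostly not called. Of 49 adjacent genes 26 were tested, 3 fell (11.5%) and 4 rose (15.4%), with a median log2 fold change of -0.15. Within 3 genes on each side, 85 of 141 were tested, 10 fell (11.8%) and 9 rose (10.6%), which is near the 8.31% and 11.3% of all genes tested. Beside CG4950, Gr98b and sesB, the falls included CG15353 near Nplp4 (-4.49 ± 1.05, edgeR adjusted p = 0.0411). The rises included slam, a gene of embryonic cellularisation next to Nepl4, from 18.3 and 12.7 to 78.7 and 40.5 CPM (1.89 ± 0.38, edgeR adjusted p = 0.0301). ZnT35C, a zinc transporter gene 1164 bases from dao, rose from 6.26 and 9.39 to 40.2 and 35.4 CPM (2.22 ± 0.28, edgeR adjusted p = 0.0137).

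**Figure D4:**
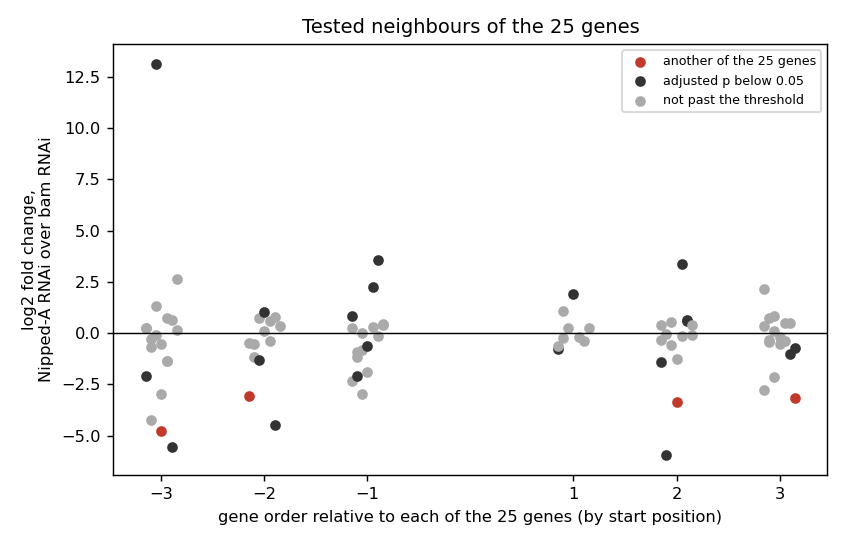
Log2 fold change (Nipped-A-labelled libraries over bam RNAi) of the tested neighbours of the 25 genes against their place in gene order, from -3 to 3. The points scatter on both sides of 0, with a median of -0.15 for adjacent genes and -0.14 within 3 genes.

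In all, 12 of the 25 genes overlap another listed gene by span and 6 share exonic bases with one (Ant2, mtsh, CG4115, NANS, CG13148 and CG31683). CG31683 shares 172 bases, or 8.47%, with CG31688 on the opposite strand, which had 23.7 and 29.0 CPM in bam RNAi and 46.9 and 34.6 CPM in the other group. The kit kept strand, per the labels' protocols, but the strand setting of the counting is not given in the sources used here. Counts of these 6 genes are therefore uncertain.

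The lists of cell type markers held none of the 25 genes, and the markers are given beside them as measured. Of all 10245 genes tested, edgeR called 8.31% lower and 11.3% higher in the Nipped-A-labelled libraries. All 12 germ cell and all 14 follicle cell markers found in the files were abundant enough to test, in ovaries as the labels name them. Markers of the ovarian and visceral muscle sheath summed to 32706 and 32608 CPM in bam RNAi and 11053 and 14374 CPM in the Nipped-A-labelled libraries. Of the 14, 11 fell, while bt, sls and Mf were not called. Tracheal markers summed to 456 and 451 CPM against 155 and 159 CPM, with 5 of 7 lower and 1 higher (Cht2), and uif was not called. Hemocyte markers summed to 8641 and 7662 CPM against 3773 and 3944 CPM, with 5 of 10 lower and 1 higher. Most of these sums came from Col4a1, vkg and Pxn, which had 2983, 1839 and 2503 CPM in bam RNAi library 1 and fell. NimC1 and Sr-CI also fell and srp rose, while edgeR did not call Hml, eater, He or crq. Flight muscle markers fell in 3 of 5 tested genes, from sums of 852 and 745 CPM to 337 and 346 CPM. Most of these sums came from Actn, with 570 and 501 CPM against 245 and 207 CPM, while fln and TpnC41C were near 0. Act88F, among the falls, had met the thresholds and was dropped above by symbol. Fat body markers fell in 6 of 10 and rose in 2, with sums of 1295 and 1250 CPM against 2050 and 1632 CPM, and 5 of the falls (Fbp1, Fbp2, Lsp1alpha, Lsp1gamma and Obp99b) were genes dropped above by symbol.

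Other lists mostly moved the opposite way or little, beside the 8.31% of all genes tested that were called lower and the 11.3% called higher. All 9 tested gut markers rose, from sums of 4.85 and 5.32 CPM to 1064 and 3711 CPM. Follicle cell markers rose in 7 of 14 and fell in 2, with sums of 8524 and 9132 CPM against 16601 and 16588 CPM. The rises were Yp1, Yp2, Yp3, dec, peb, Vm32E and yellow-g, and the falls were eya and mirr. edgeR did not call tj, Fas3, cas, Vm26Aa or slbo. Germ cell markers rose in 5 of 12 and fell in 2, with sums of 2165 and 2084 CPM against 3098 and 2664 CPM. One of these rises was bam itself, the targeted gene of the bam RNAi libraries, and without it 4 of 11 rose and 2 fell. Cap and escort cell markers fell in 2 of 12, and spermathecal markers in 1 of 4 with 2 higher. Glial markers fell in 1 of 6, with sums of 635 and 655 CPM in bam RNAi against 384 and 563 CPM. Malpighian tubule markers rose in 1 of 7 and oenocyte markers in 1 of 5. The Nipped-A-labelled libraries were far apart in some tubule markers. Uro, salt and NaPi-T had 12.4, 5.92 and 8.47 CPM in library 1 and 181, 194 and 131 CPM in library 2, while Vha55 and ZnT35C differed little. Male accessory gland markers were near 0, with SP and Acp76A at 0 counts in all 4 libraries. The part of any of these cell types in the values of the 25 genes was not tested.

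**Figure D5:**
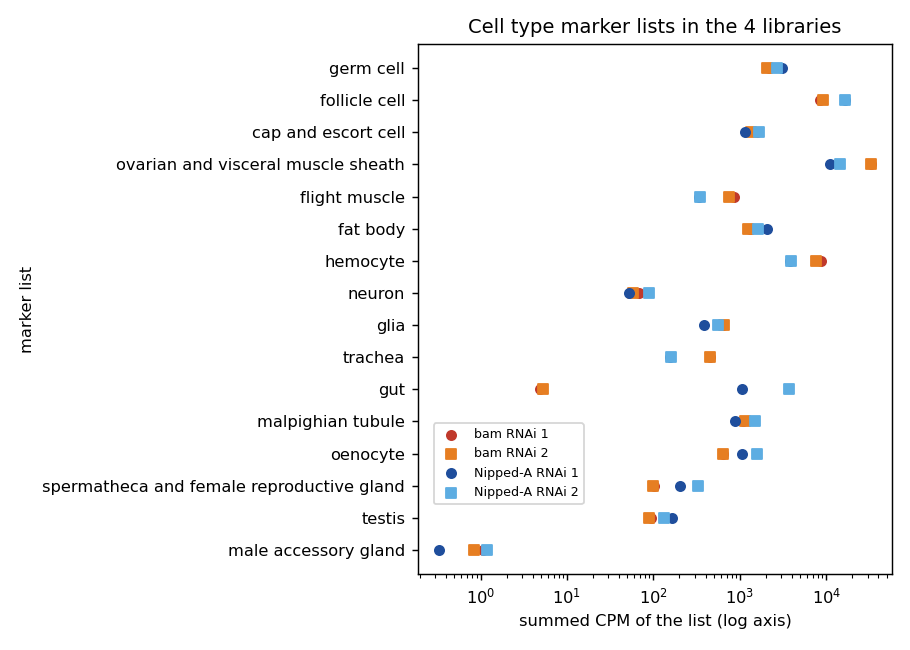
Summed CPM (log axis) of each cell type marker list in the 4 libraries, 1 point per library. Sums for muscle sheath, flight muscle, trachea, hemocytes and glia are higher in both bam RNAi libraries. The gut sum is at 4.85 and 5.32 CPM there against 1064 and 3711 CPM.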

How the data were processed

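Poly(A) RNA of ovaries was sequenced in 2 bam RNAi and 2 Nipped-A RNAi libraries. The authors deposited raw counts per gene and library. Per the submitters' processing notes, the tools were HISAT2 2.1.0, featureCounts 1.6.0.4 and edgeR 3.16.5, with genome build dm6. The annotation, strand setting and handling of multi-mapping reads are, in the sources used here, not given.

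CPM is the count over the library total, times 1e6. Counts were tested with edgeR 4.0.16 in R 4.3.3 (filterByExpr, TMM, glmQLFit and glmQLFTest, two-sided, Benjamini-Hochberg over 10245 genes, threshold 0.05). The steps were tested on simulated data. DESeq2 1.42.0, other scalings, thresholds and filters, a block for the replicate number and leaving out each library were alternatives. Symbols (16646 of 17023 identifiers) and positions come from Ensembl release 115 gene models on dm6. The 25 genes and the lists, matched by exact symbol, were chosen with earlier results of these data known, and the families of relatives after the genes were seen. Named genes are the 12 most abundant of the 25, the 12 with the highest ratio, those with a known symbol, list members and the genes at each boundary. Neighbours, relatives and other genes were named after their values were seen.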

Additional observations from a re-analysis of the deposited data

How the results depend on the processing

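The number of genes that met the conditions was 25. It became 55 with a factor of 4, 9 with a factor of 10, 39 with a minimum of 2 CPM and 16 with a minimum of 10 CPM. Leaving out 1 library gave 30 to 58 genes (42 without bam RNAi library 1, 58 without Nipped-A RNAi library 2). All 25 were among them each time, which was fixed in advance, since leaving out a library can only loosen the conditions. CPM by TMM or upper-quartile library sizes gave 29 and 37, again with all 25.

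edgeR called 2004 genes. DESeq2 called 3521 (1415 lower, 2106 higher), and upper-quartile scaling raised the lower calls from 851 to 1556. Leaving out 1 library gave 0 to 4215 calls, 0 to 1771 lower and 0 to 2511 higher. The 0 came without bam RNAi library 1 or 2, where 2373 and 1837 genes had an unadjusted p below 0.05 and the calls of the 25 genes fell to 0; without either Nipped-A RNAi library they were 25. The cause was not tested. With 1 library left in a group, that library is assumed to vary like the other group.

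The labels give no pairing of the libraries beyond a shared replicate number, and differences between library 1 and 2 correlated at -0.0754 across 10245 genes. With the replicate number as a block edgeR called 1813 genes (689 lower, 1124 higher), all 25 among them. Calls of 42 other genes were recomputed, and 7 were lost under the block, among them Nep4, Spn28Dc and aly. No log2 fold change of these 42 or of the 25 changed sign in any alternative. For the 25, this and their calls under the block follow from how they were chosen, and nothing is read from them. The 42 had been called in the same data, so their signs are not an independent check. Depth limits the genes with the fewest counts in the Nipped-A-labelled libraries, for which the size of the ratio is poorly known.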

Other observations

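Genes that just missed the conditions are given as a description, chosen after their values were seen. The alpha and beta subunits of the nascent polypeptide-associated complex, which binds emerging chains at the ribosome, have variant genes gNacalpha and uncNacbeta. gNacalpha had 32.9 and 31.2 CPM in bam RNAi against 2.03 and 5.24 CPM in the Nipped-A-labelled libraries. uncNacbeta had 13.1 and 19.0 CPM against 1.61 and 2.26 CPM.

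Among enzymes and structural genes at a ratio of 4 to 6 were the cytochrome P450 genes Cyp309a2 (25.4 and 27.1 against 4.66 and 2.41 CPM) and Cyp318a1 (63.7 and 63.1 against 9.81 and 12.4 CPM). The ecdysone synthesis gene phtm had 37.6 and 41.0 CPM against 8.11 and 7.88 CPM. Ndg, the basement membrane protein nidogen, had 11.7 and 11.1 CPM against 2.30 and 1.89 CPM. AdoR, the adenosine receptor, had 52.5 and 56.4 CPM against 12.5 and 12.9 CPM. CG7443 was the most abundant of those without a known role, with 2103 and 2399 CPM against 339 and 417 CPM.

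VGlut, which loads glutamate into synaptic vesicles and missed the minimum of 5 CPM, had 4.58 and 4.82 CPM in bam RNAi against 0.146 and 0.0944 CPM (7 and 2 counts). CG42876 had 79 and 63 counts in bam RNAi and 0 in both other libraries.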
